A study of Mus musculus with 3 samples.

Results

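The cartilage collagens and matrix genes described here were Col2a1, Col9a1, Col9a2, Col9a3, Col11a1, Col11a2, Acan, Hapln1, Matn1 and Chad. They are 10 of the 17424 autosomal protein-coding genes that had at least 1 peak in a single-cell ATAC-seq (scATAC-seq) series of the mouse forelimb. A peak, a stretch of open chromatin called in 1 library, was counted for a gene when it overlapped the gene body or the 2 kb upstream of its start in mm10 (GRCm38). By this rule 157 member peaks were found, 56 at embryonic day (E) 12.5, 33 at E14.5 and 68 at E16.5, out of 190443, 102459 and 213613 peaks called in the respective libraries. All 10 genes had a peak in every library.

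The 3 libraries held nuclei of sorted tdTomato+ mesenchymal progenitors (MPs) from Hic1CreERT2/CreERT2;Rosa26LSLtdTomato/tdTomato embryos of strain C57BL/6J, whose dams had been given 7.5 mg of tamoxifen by gavage at E10. Both alleles of Hic1 therefore carried CreERT2 in every sample, and the label marked cells, and their descendants, in which the Hic1 locus drove the recombinase. Per the study's methods the sorted cells were negative for CD45, CD117, CD31, CD11b, F4/80 and Ter119, and embryos of both sexes were pooled. Whole forelimbs were used at E12.5 and E14.5, and a segment around the elbow at E16.5. Dispase was used for dissociation at E12.5, and Collagenase A, Pronase and DNase at the later stages. Each stage was 1 library, so stage and library cannot be told apart, and stages could not be compared by a test. Digestion also changed between E12.5 and E14.5, and tissue segment between E14.5 and E16.5, so each is confounded with stage in that step. The intervals given are 95% intervals that cover counting error only.

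The libraries contained 8294, 20023 and 14048 nuclei, with medians of 6004, 8575 and 26694 cut sites per nucleus in peaks. They shared 151 to 401 cell barcodes per pair, at most 2.85% of the smaller library. The E14.5 library had fewer and more promoter-centred peaks, with 50.9% of its cut sites in promoter peaks against 38.8% at E12.5 and 36.7% at E16.5. When every nucleus was thinned to 1309 fragments, the limb mesenchyme markers Prrx1, Pdgfra, Hic1, Twist1 and Twist2 were open in 4.55% to 17.9% of nuclei. The blood, endothelial, epithelial, muscle and Schwann cell markers measured ranged from 0.202% (Krt14, E16.5) to 5.35% (Tek, E14.5), with no shared peak at Krt5. Pecam1, which encodes CD31 and was used in the negative sort, was still open in 3.84% to 5.32% of nuclei. Open loci of other lineages were thus measured in these sorted nuclei too.

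Cartilage matrix is a network of thin collagen fibrils that holds a highly charged proteoglycan gel. The fibril core is collagen II, a homotrimer of the Col2a1 product, with collagen XI (Col11a1, Col11a2 and a Col2a1-derived chain) nucleating and limiting the fibril. Collagen IX, a heterotrimer of the Col9a1, Col9a2 and Col9a3 products, decorates its surface. Aggrecan (Acan) binds hyaluronan, and the link protein Hapln1 stabilises that bond, while matrilin 1 (Matn1) and chondroadherin (Chad) connect matrix components with one another and with cells. The transcription factors SOX9, SOX5 and SOX6 are known to act together on enhancers of several of these genes, many of them intronic. Col9a1 has a pair of start sites, an upstream one for the long form used in cartilage and a downstream one, inside an intron of the long form, for a short form best known from the eye.

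Sequences of the regions on which the results turn are printed 5′ to 3′ on the strand of the gene, from the RefSeq GRCm38.p6 genome. Capitals mark a SOX core, ACAAAG or ACAATG on either strand. The intronic and flanking elements are 240 bases centred on the E14.5 peak. The Col2a1 element near 12 kb, the Col11a1 element near 35 kb and the Acan element near 27 kb lie in the intronic region with the highest E16.5 level of each gene. The Col11a1 elements near -2 and 69 kb, the Col9a3 elements near 7 and 14 kb and the upstream Col9a1 start site were chosen after their values were seen, because they were more often open in nuclei with other cartilage loci open. The Col2a1 element, shown as the most accessible intronic one of the gene at E14.5, lies at chr15:97992860-97993099 (minus strand, intron 16 of the 54-exon transcript).
Col2a1 intron 12 kb: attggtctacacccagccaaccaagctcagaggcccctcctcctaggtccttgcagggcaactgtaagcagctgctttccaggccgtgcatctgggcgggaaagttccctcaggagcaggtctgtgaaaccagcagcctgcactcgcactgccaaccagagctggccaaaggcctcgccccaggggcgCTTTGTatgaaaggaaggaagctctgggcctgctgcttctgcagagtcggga

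The Col11a1 elements are at chr3:114028288-114028527 (plus strand, upstream flank), chr3:114099426-114099665 (plus strand, intron 10 of 67 exons) and chr3:114065328-114065567 (plus strand, intron 3). The last is the intronic region most often open and serves as the contrast to the others.
Col11a1 flank -2 kb: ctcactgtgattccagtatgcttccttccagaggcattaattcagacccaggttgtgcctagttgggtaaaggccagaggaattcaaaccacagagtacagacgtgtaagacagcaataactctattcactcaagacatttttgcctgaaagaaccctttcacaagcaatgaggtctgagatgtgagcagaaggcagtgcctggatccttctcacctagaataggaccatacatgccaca
Col11a1 intron 69 kb: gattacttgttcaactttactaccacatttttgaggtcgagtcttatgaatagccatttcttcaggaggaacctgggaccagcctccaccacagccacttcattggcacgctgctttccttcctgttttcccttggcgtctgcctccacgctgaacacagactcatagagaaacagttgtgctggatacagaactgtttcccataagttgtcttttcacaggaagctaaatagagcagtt
Col11a1 intron 35 kb: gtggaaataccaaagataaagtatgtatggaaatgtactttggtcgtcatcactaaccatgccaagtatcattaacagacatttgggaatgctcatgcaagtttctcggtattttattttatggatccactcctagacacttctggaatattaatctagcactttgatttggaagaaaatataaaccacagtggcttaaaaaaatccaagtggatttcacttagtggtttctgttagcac

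The Col9a3 elements at chr2:180604842-180605081 (plus strand, intron 11 of 33 exons) and chr2:180611913-180612152 (plus strand, intron 25) and the Acan element at chr7:79080774-79081013 (plus strand, intron 1 of 17 exons) are shown as examples of intronic elements that were more often open in nuclei with other member loci open.
Col9a3 intron 7 kb: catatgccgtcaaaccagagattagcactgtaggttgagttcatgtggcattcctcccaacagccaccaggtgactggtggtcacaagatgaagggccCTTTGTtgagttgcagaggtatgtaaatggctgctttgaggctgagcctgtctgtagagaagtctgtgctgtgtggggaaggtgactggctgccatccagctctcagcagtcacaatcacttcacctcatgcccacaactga
Col9a3 intron 14 kb: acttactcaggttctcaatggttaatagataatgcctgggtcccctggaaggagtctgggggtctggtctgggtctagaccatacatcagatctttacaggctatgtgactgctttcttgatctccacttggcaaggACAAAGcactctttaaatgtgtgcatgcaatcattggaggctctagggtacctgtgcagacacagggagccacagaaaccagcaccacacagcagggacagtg
Acan intron 27 kb: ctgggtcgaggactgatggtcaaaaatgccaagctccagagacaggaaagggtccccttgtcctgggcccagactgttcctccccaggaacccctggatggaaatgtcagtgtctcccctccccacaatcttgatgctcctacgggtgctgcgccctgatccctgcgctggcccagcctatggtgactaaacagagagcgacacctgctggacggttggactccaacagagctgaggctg

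The 250 bases before each Col9a1 start site follow, since the long-form and short-form promoters behaved differently. They lie at chr1:24177360-24177609 and chr1:24194937-24195186 (both plus strand), the latter within intron 6 of the 38-exon long form.
Col9a1 long-form: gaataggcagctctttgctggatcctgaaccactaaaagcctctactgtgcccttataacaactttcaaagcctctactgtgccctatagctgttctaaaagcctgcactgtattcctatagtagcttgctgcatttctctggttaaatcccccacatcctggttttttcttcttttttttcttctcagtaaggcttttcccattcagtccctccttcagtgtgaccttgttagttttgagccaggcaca
Col9a1 short-form: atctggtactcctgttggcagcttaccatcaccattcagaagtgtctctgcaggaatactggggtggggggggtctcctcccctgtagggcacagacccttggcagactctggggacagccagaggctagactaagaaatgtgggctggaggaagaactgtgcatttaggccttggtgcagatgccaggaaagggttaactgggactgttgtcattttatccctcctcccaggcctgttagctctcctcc

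The Col2a1 element and both Col9a3 elements held 1 SOX core each, and the Acan, Col11a1 and Col9a1 sequences held none. A core of this kind was common, present in 27% of all 86294 E14.5 peaks outside promoters and in 8 of the 23 such member peaks (34.8%). Among member peaks open in at least 0.5% of nuclei it was found in 4 of 9 that were at least 2 times as often open in nuclei with other member loci open and in 3 of 8 that were not. The inverted SOX pair (ACAAT or ACAAA, then 3 to 5 bases, then ATTGT or TTTGT) was in 0.425% of those peaks and in 0 of the 23 member peaks. These matches describe letters in a window and say nothing about binding.

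Summed over full called widths, the promoters of the fibril genes Col2a1 and Col11a1 held the most cut sites of the set at every stage. Per base of called peak this order did not hold. At E12.5 their peaks spanned 4876 and 3246 bases, and the short-form Col9a1 promoter, at 2431 bases, was above both per base. Levels are in CPM, the cut sites in a gene's promoter peaks scaled to 1e+06 cut sites in autosomal regions called in all 3 libraries. A promoter peak is one that reaches from 1000 bases before to 100 bases after a start site, and is scored over its full called width. Col2a1 stood at 68.8, 77.0 and 66.6 CPM in the E12.5, E14.5 and E16.5 libraries. Col11a1, the chain that starts the fibril, stood at 53.3, 67.9 and 46.0 CPM. Col11a1 thus peaked at E14.5 and then fell by 0.56 on the log2 scale (interval -0.61 to -0.51). Col11a2, its partner chain, measured 18.2, 26.7 and 29.7 CPM, a log2 difference of 0.55 (0.43 to 0.68) from E12.5 to E14.5 and of 0.15 thereafter. Called widths differed between libraries, and from E14.5 to E16.5 the differences per kb of called peak were log2 -1.28 for Col2a1, -0.68 for Col11a1 and -0.25 for Col11a2, where the median of all genes was -0.67. The direction of Col11a2 thus turned, and Col2a1 passed 0.5, on that scale.

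The collagen IX promoters called in all libraries were lower at E16.5 than at E12.5, by very different amounts. The downstream, short-form promoter of Col9a1 stood at 43.6 CPM (41.5 to 45.8) in the E12.5 library, then at 19.2 CPM (18.33 to 20.05) and in the E16.5 library at 12.9 CPM (12.4 to 13.5). The log2 difference was -1.18 (-1.28 to -1.09) in the first interval and -1.75 over both, in each case the largest of the 9 member promoters, and -0.57 (-0.66 to -0.48) in the second. Only 0.582% of genes with a shared promoter region were lower over both. The upstream, long-form start site of the same gene ran in the opposite direction. It had no called peak at E12.5, a peak of 122 bases with 0.469 CPM at E14.5, and a peak of 682 bases with 3.38 CPM at E16.5. As the called width grew too, the rise per base between the later stages was much smaller. Col9a2 was steadier at 39.6, 37.1 and 29.0 CPM. Col9a3 measured 13.4, 16.3 and 9.22 CPM, so that its promoter fell by 0.82 on the log2 scale (-0.93 to -0.72) after E14.5.

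Of the aggregate genes, Acan measured 19.1, 18.9 and 15.8 CPM, and Hapln1 25.1, 34.5 and 30.9 CPM. Neither differed by 0.5 on the log2 scale between neighbouring stages, although Hapln1 came near it in the first interval (0.45). Per kb of called peak Acan stood at 0.67 in the first interval and -1.11 in the second and Hapln1 at 0.34 and -0.71, where the medians of all genes were 0.50 and -0.67. Of the adaptors, Chad measured 8.17, 8.93 and 14.5 CPM, with a log2 difference of 0.70 (0.59 to 0.81) from E14.5 to E16.5. Its promoter peak lies in an intron of the overlapping gene Acsf2, and its called width was 1643, 1187 and 3066 bases. Per kb of called peak the Chad difference turned to log2 -0.67, which was also the median of all genes on that scale. The Matn1 promoter was called at E16.5 only, at 1.81 CPM (1.62 to 2.02), and the other stages have no promoter value for it.

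**Figure D1:**
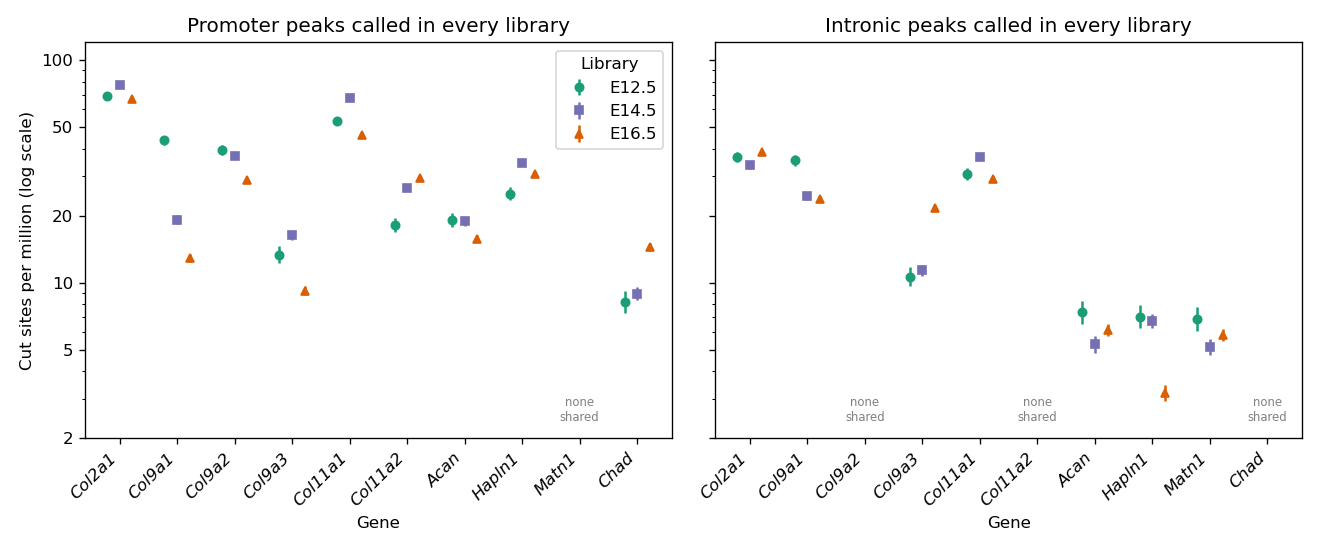
Accessibility of the 10 cartilage genes at promoter peaks and at intronic peaks in each library, in CPM on a log axis, with 95% counting intervals as bars. The short-form Col9a1 promoter runs down from 43.6 to 12.9 CPM, while the Col2a1 promoter lies between 66.6 and 77.0 CPM over called widths of 4423 to 9311 bases.

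Set against all genes, the member promoters moved little as a group. From E12.5 to E14.5 the 9 promoters measured at every stage had a median log2 difference of 0.16, against 0.26 for all 14265 genes. One promoter, Col11a2, was higher by at least 0.5 (all genes, 18.1%) and 1, Col9a1, was lower (all genes, 6.06%). From E14.5 to E16.5 the medians were -0.26 and -0.28. Chad was higher (all genes, 5.84%), and Col9a1, Col9a3 and Col11a1 were lower, 3 of 9 (all genes, 15%).

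The intronic peaks did not simply follow the promoters. Col9a3 had 10.7, 11.4 and 21.6 CPM in its introns, a log2 difference of 0.92 (0.83 to 1.02) from E14.5 to E16.5, while its promoter was lower over the same interval. The widths of its intronic peaks grew as well, and per kb of called peak the difference was log2 -0.67, where the median of all genes was -0.50. Col9a1 introns fell by 0.54 from E12.5 to E14.5, from 35.5 to 24.4 CPM, and stood at 23.8 CPM at E16.5. Per kb of called peak that first difference turned to log2 0.28, where the median of all genes was 0.32. Col2a1 introns measured 36.8, 33.6 and 38.5 CPM and Col11a1 introns 30.8, 36.8 and 29.3 CPM, and neither differed by 0.5 on the log2 scale between neighbouring stages. Per kb of called peak they differed by log2 -1.32 and -0.83 from E14.5 to E16.5, and Col11a1 introns by 0.59 in the first interval. At E16.5 the 9311-base Col2a1 promoter peak took in stretches called intronic earlier, which removes their cut sites from the intronic sum.

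The introns of Acan held 7.38, 5.29 and 6.14 CPM and those of Matn1 6.88, 5.15 and 5.85 CPM. Hapln1 introns held 7.05, 6.75 and 3.19 CPM. At E16.5 the intronic Hapln1 peak that began at 2.73 kb at E14.5 was part of a 4918-base promoter peak, which removes its cut sites from the intronic sum. Col9a2, Col11a2 and Chad had no intronic region in all 3 libraries. Over the 7 genes with one, the median log2 difference was -0.13 from E12.5 to E14.5 (all 7295 genes, -0.33) and 0.18 from E14.5 to E16.5 (all genes, 0.33). In the first interval 0 of 7 were higher (all genes, 11.6%) and 1 was lower (39.2%). In the second, 1 (Col9a3) was higher (39.1%) and 1 (Hapln1) was lower (9.65%), and with intronic peaks outside the shared regions included the Hapln1 difference turned to 0.93.

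Promoters of other genes of the pathway were mixed in direction, at the same limit of 0.5 on the log2 scale. For the SOX trio the medians were 0.05 and -0.34 in the first and second interval. Sox6 was highest at 0.15 and -0.19 and Sox5 lowest at -0.25 and -1.04. Of 15 other cartilage genes 11 had a shared promoter region, and in each interval 2 were higher and 1 was lower. In the first interval they ran from Ihh, the hedgehog ligand of the growth plate, at -0.97 to Scrg1, a secreted protein induced in chondrogenesis, at 1.30. In the second they ran from Matn4 at -0.61 to Prg4, the joint lubricant lubricin, at 1.25. The 7 glycosaminoglycan synthesis genes ran from 0.14 (Chst3) to 0.67 (Papss2), 1 of them higher, and then from -0.44 (Chst11) to -0.09 (Ugdh), with 0 higher or lower. Of the collagens outside cartilage 1 was higher and 1 lower in the first interval, from Col1a1, the main collagen of bone and tendon, at -0.60 to Col6a1 at 0.55. In the second, 3 of 10 were higher and 0 lower, from Col5a1 at -0.11 to Col1a1 at 1.65.

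Fibrogenic promoters ran from 0.08 (Fap) to 0.91 (Postn) in the first interval and from -0.13 (Fap) to 1.99 (Dpt) in the second, when 4 of 6 were higher and the median was 1.2. Tendon promoters ran from -2.40 (Scx, the tendon transcription factor) to 1.13 (C1qtnf3) and then from -0.67 to 1.01 in the same genes. Dermal promoters ran from -0.56 (Rspo1) to 0.77 (Irx2) and then from -0.60 (Nkd2) to 1.06 (Col7a1). Ubiquitous promoters ran from -0.10 (Vcp) to 1.64 (Tbp) in the first interval. The tendon, dermal and ubiquitous medians were each -0.18 in the second interval, and in all 3 lists single genes passed 0.5.

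The share of nuclei with an open locus showed a modest range by stage. A locus counts as open when at least 1 cut site lies in any of its peaks that fall in regions called in all libraries, after thinning to 1309 fragments (pairs of cut sites in a peak, rounded up), which 6221, 19521 and 13834 nuclei reached. Depth was thus matched over all peaks of a library and not within the shared regions. The part of the cut sites in shared autosomal regions was largest at E14.5 and smallest at E16.5. At least 1 of the 10 loci was open in 37.5% of E12.5 nuclei (36.3 to 38.8), 39.8% of E14.5 nuclei (39.1 to 40.5) and 30.1% of E16.5 nuclei (29.3 to 30.9). Col2a1 was open in 10.4%, 11.8% and 10.1% of nuclei and Col11a1 in 8.71%, 12.5% and 7.53%. Col9a1 fell from 9.08% to 5.67% and 4.03%. Col9a2 stood at 4.6%, 4.36% and 3.06%, and Hapln1 at 3.34%, 5.15% and 3.65%. Col11a2 (2.03%, 3% and 3.3%) and Chad (0.948%, 1.04% and 1.58%) were the loci whose share was highest at E16.5 together with Col9a3 (2.88%, 3.22% and 3.43%). Called width was not matched. From E14.5 to E16.5 it grew from 3568 to 4705 bases at the Col11a2 promoter and from 1187 to 3066 at that of Chad. The Col9a3 intronic peak near 3 kb grew from 654 to 2013 bases, and the Col2a1 promoter peak from 4423 to 9311. Whether width set these shares was not tested. Acan ranged from 2.31% to 2.81% and Matn1 from 1.07% to 1.24%.

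Although fewer nuclei had a member locus open at E16.5, joint opening then lay furthest above the number expected from independent opening. The share of nuclei with at least 2 loci open was itself not higher, at 7.46%, 9.02% and 7.13% in order of stage at 1309 fragments. For each of the 45 gene pairs, the nuclei with both loci open were counted and set against the number expected if the loci opened independently. These counts were summed over pairs, so a nucleus enters the sum for every pair of its open loci. Intervals of the sums take the pair counts as independent and leave out the random thinning, and so are too narrow. At E12.5 the sum was 581 pair openings against 556 expected, a ratio of 1.05 (0.962 to 1.13), with 20 of 45 pairs above 1. At E14.5 the ratio was 1.21 (1.16 to 1.26), with 38 pairs above 1. At E16.5 there were 1937 pair openings against 952 expected, a ratio of 2.03 (1.94 to 2.13), with all 45 pairs above 1 and 37 intervals wholly above 1. At 3000 fragments per nucleus the ratios were 1.04, 1.15 and 1.74, the same order with a smaller difference at E16.5.

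**Figure D2:**
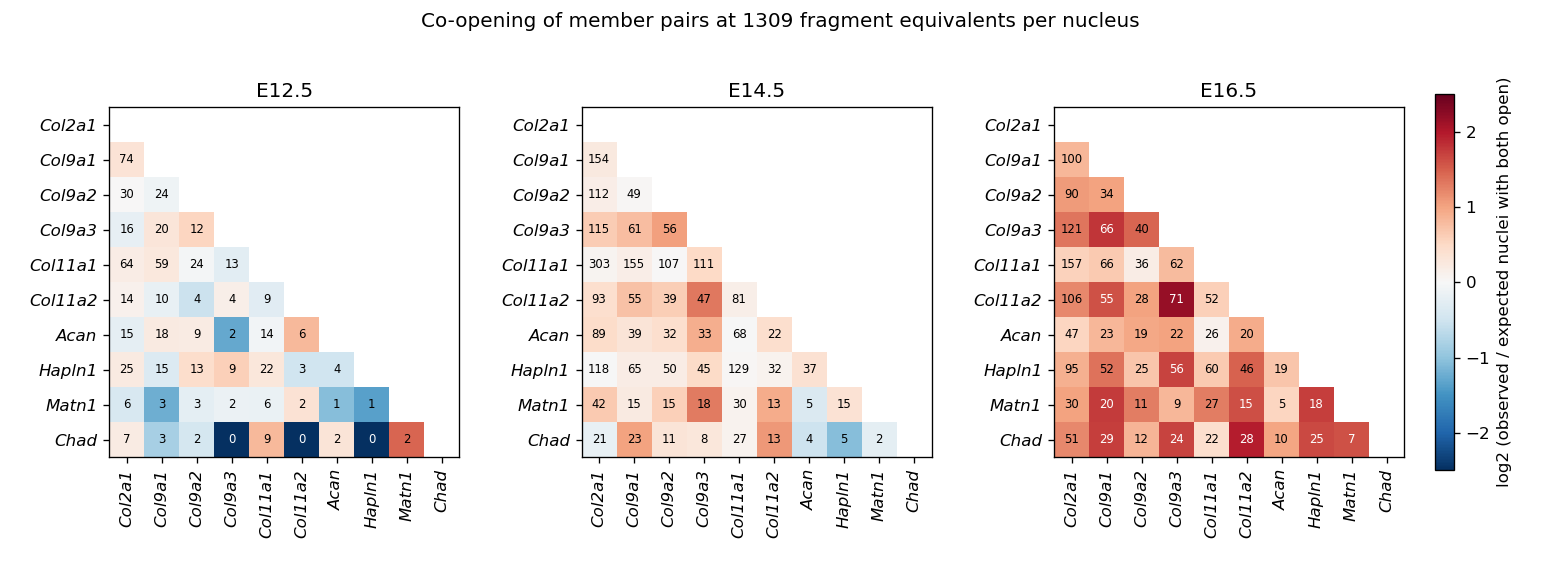
Co-opening of the 45 pairs of cartilage genes in each library at 1309 fragments per nucleus, coloured by the log2 ratio of observed to expected nuclei, with the number of nuclei with both loci open printed in each cell (cells with 0 nuclei take the lowest colour). The E12.5 panel is mixed in colour, and every E16.5 pair has a ratio above 1, with Col9a3 and Col11a2 darkest at 4.54.

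The pair with the highest ratio at both later stages joined collagen IX with collagen XI. Col9a3 and Col11a2 were open together in 47 nuclei at E14.5, a ratio of 2.49 (1.83 to 3.31), and in 71 nuclei against 15.6 expected at E16.5, a ratio of 4.54 (3.55 to 5.73). Col11a2 with Chad followed at E16.5 with 28 nuclei and 3.90 (2.59 to 5.63), and then Col9a1 with Col9a3 (66 nuclei, 3.46). At 3000 fragments the order differed at E16.5, with Col9a3 and Chad first at 3.13 (2.53 to 3.83) and Col9a3 and Col11a2 next at 2.79 (2.38 to 3.25). At 1309 fragments the lowest pairs at E16.5 involved Col11a1. With Acan it was open in 26 nuclei against 24.1 expected (1.08, 0.705 to 1.58), and with Col9a2 the ratio was 1.13.

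Summed over its 9 pairs at E16.5, Col9a3 was highest at 2.71 (2.47 to 2.97), followed by Col11a2 (2.51), Chad (2.48), Matn1 (2.46), Col9a1 (2.22) and Hapln1 (2.15). Col2a1 stood at 1.90 and Col9a2 at 1.88. Acan (1.58, 1.36 to 1.82) and Col11a1 (1.5, 1.37 to 1.63) were lowest, and their intervals did not reach that of Col9a3. At 3000 fragments Col9a3 (2.23) and Col11a1 (1.41) kept these places, but Acan stood at 1.80, above Col2a1 (1.62), Col9a2 (1.68) and Hapln1 (1.72). At E14.5 Col9a3 was again highest at 1.65, and Col11a1 and Hapln1 were lowest at 1.08. At E12.5 the values ran from 0.756 for Matn1 to 1.1 for Col2a1, and every interval included 1. At 3000 fragments that of Col9a3 lay just above it (1.14, 1.002 to 1.29). Neighbouring genes at 1309 fragments had overlapping intervals in these orders.

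The pairs can also be read through the number of loci open per nucleus. Nuclei with at least 3 of the 10 loci open numbered 51 at E12.5 against 49.1 expected from independent shares, 302 against 201 at E14.5 and 279 against 76.9 at E16.5. With at least 4 open there were 5 against 3.37, 55 against 15.2 and 87 against 4.81. At 3000 fragments the E16.5 counts were 919 against 551 with at least 3 open and 414 against 74.8 with at least 4, smaller ratios (1.67 and 5.54) than at 1309 fragments (3.63 and 18.1). With at least 2 open, the E16.5 counts were 987 against 783 at 1309 fragments but 2521 against 2625 at 3000, below expectation. At E16.5 the nuclei with none open also exceeded the expected number, 9673 against 9154. Openings at E16.5 were thus gathered in fewer nuclei than independence would give, and the interval of the pooled pair ratio included 1 at E12.5.

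**Figure D3:**
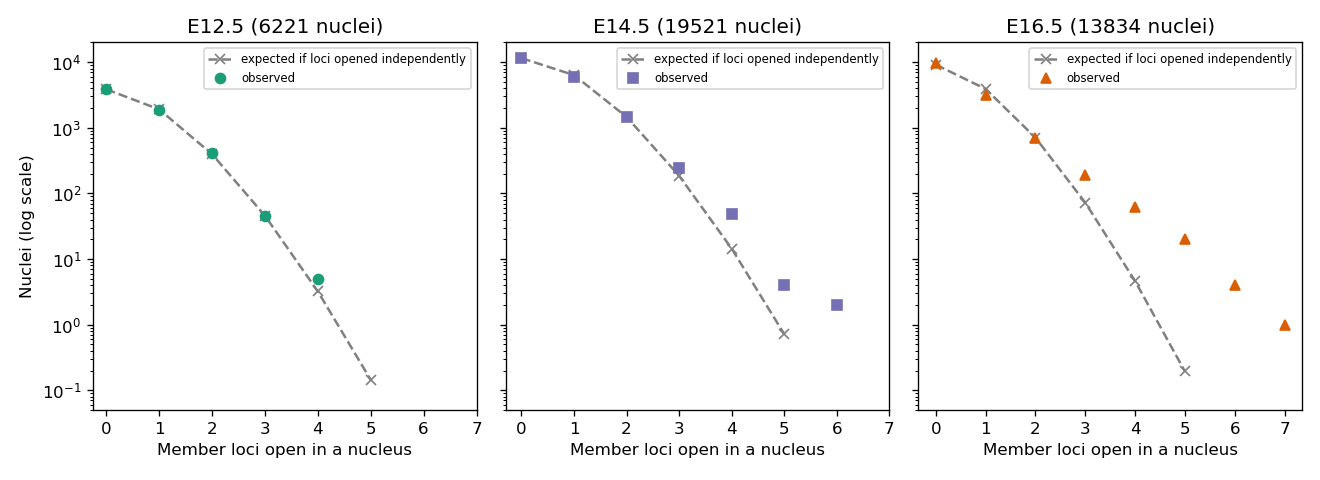
Number of nuclei with a given number of the 10 loci open, observed and expected from the single shares, on a log axis for each library. Observed and expected numbers lie close together at E12.5, and at 4 or more loci the E16.5 nuclei number 87 against 4.81.

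Nuclei with at least 3 open loci at E16.5 had been less deeply sequenced than those with none, with medians of 10013 and 14106 fragments before thinning, and had more of their open peaks in promoters, 41.1% against 34.3%. At E12.5 and E14.5 those shares were 36.6% against 35.1% and 49.0% against 47.2%. Comparing nuclei only within 10 bins of this promoter share gave a pooled ratio of 1.77 at E16.5. No doublet caller was run, and without the deepest 5% of nuclei the ratio was 2.06.

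The ratios were similar for promoters and introns, but the classes were not the same set at every stage. At E16.5 wider promoter peaks took in Col2a1, Hapln1 and Chad regions called intronic earlier, and intron pairs numbered 21 rather than 28. At E16.5 the ratio was 1.99 for promoters of different genes, 1.83 for introns of different genes and 2.11 for a promoter with an intron of another gene. The corresponding values were 1.19, 1.26 and 1.21 at E14.5, and 1.02, 1.01 and 1.01 at E12.5. A promoter and an intron of the same gene were open together more often than expected already at E12.5, at 1.53 (1.19 to 1.93), and at 1.30 and 2.39 later.

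Pooled over each list, loci of other cartilage genes were more often open with the members at E16.5 than independence would give, and those of fibrogenic genes less often. At E12.5 the other cartilage genes stood at 1.07 (1.02 to 1.12), and at 3000 fragments at 1.02 (0.996 to 1.05). The SOX trio had a pooled ratio with the members of 1.38 (1.33 to 1.43) at E16.5, after 1.02 and 1.09, with Sox6 at 1.45, Sox5 at 1.36 and Sox9, the master regulator of chondrocytes, at 1.27. The other cartilage genes stood at 1.39 and the glycosaminoglycan synthesis genes, which build the chains carried by aggrecan, at 1.28. Scrg1 reached 2.85 (2.502 to 3.236), Cnmd, an inhibitor of angiogenesis made in cartilage, and the hyaluronan-binding Susd5 2.05 each, the matrilin Matn3 2.01, and Papss2, which makes the sulphate donor for proteoglycans, 1.77. Not every listed gene was above 1, with Epyc, a small proteoglycan, at 0.910 (0.787 to 1.05) and the sulphate transporter Slc26a2 at 0.994. Ugdh, which makes a glycosaminoglycan precursor, was barely above it at 1.01. The tendon list was at 1.11, and the dermal and ubiquitous lists were at 1.03 each. Collagens outside cartilage (0.941, 0.918 to 0.966) and fibrogenic genes (0.853, 0.814 to 0.892) were open with the members less often than independence would give. Among these collagens Col3a1 was lowest at 0.806 and Col12a1 highest at 1.07 (0.997 to 1.14), with Col1a1 at 0.864 and Col5a1 at 1. Of the marker lists, the ratio with the members at E16.5 was 0.870 (0.798 to 0.947) for endothelium, 0.874 (0.759 to 1.001) for muscle, 0.974 for limb mesenchyme, 0.989 for epithelium, 1.09 (0.990 to 1.21) for Schwann cells and 1.13 (0.979 to 1.29) for blood. Within-list ratios at E16.5 were 1.06 for both the collagens outside cartilage and the ubiquitous genes, 1.14 for the fibrogenic list and 1.15 for the other cartilage genes, against 2.03 for the members.

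**Figure D4:**
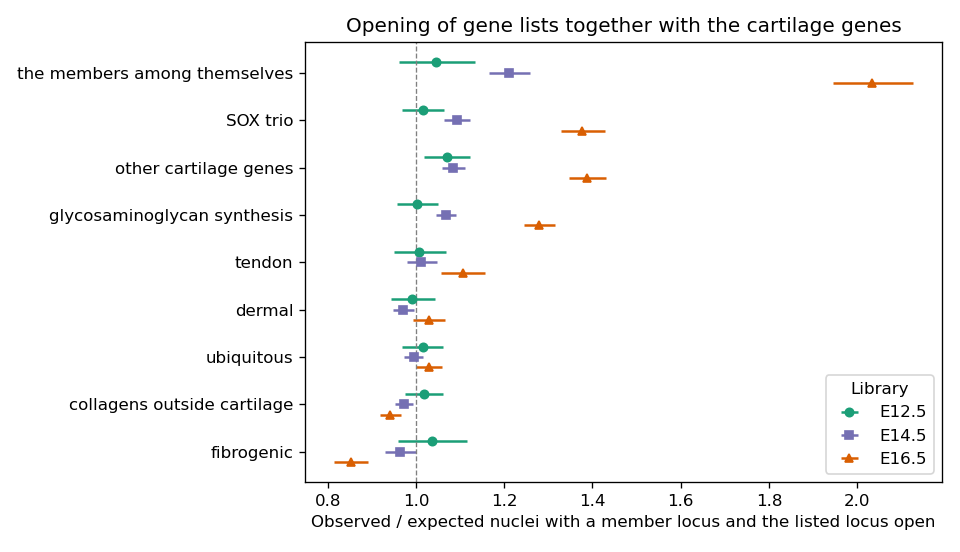
Pooled ratio of observed to expected co-opening of each gene list with the 10 cartilage genes, by library, with 95% counting intervals. The SOX trio, other cartilage genes and glycosaminoglycan synthesis genes stand between 1.28 and 1.39 at E16.5, and the fibrogenic list stands at 0.853.

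Single peaks of each gene were described by the share of nuclei in which a peak was open, at 3000 fragments per nucleus. Each library's own peaks were scored, also those outside regions called in every library, so the peak sets differ between stages. Open loci rested on shared regions only, so peaks outside them did not enter the pair ratios above. The share was compared between nuclei with at least 3 of the 9 other loci open and nuclei with none open. Of member peaks open in at least 0.5% of nuclei, 5 of 25 were at least 2 times as often open in the former at E12.5, 12 of 26 at E14.5 and 28 of 35 at E16.5. Among all autosomal peaks more than 1 Mb from the members the shares were 8.52%, 4.76% and 8.67%. The median fold of the member peaks was 1.1, 1.81 and 5.66, against 0.950, 0.962 and 0.816 for all peaks. At E12.5 only 1 of the 25 intervals lay above 1, so the E12.5 count rests on few nuclei.

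**Figure D5:**
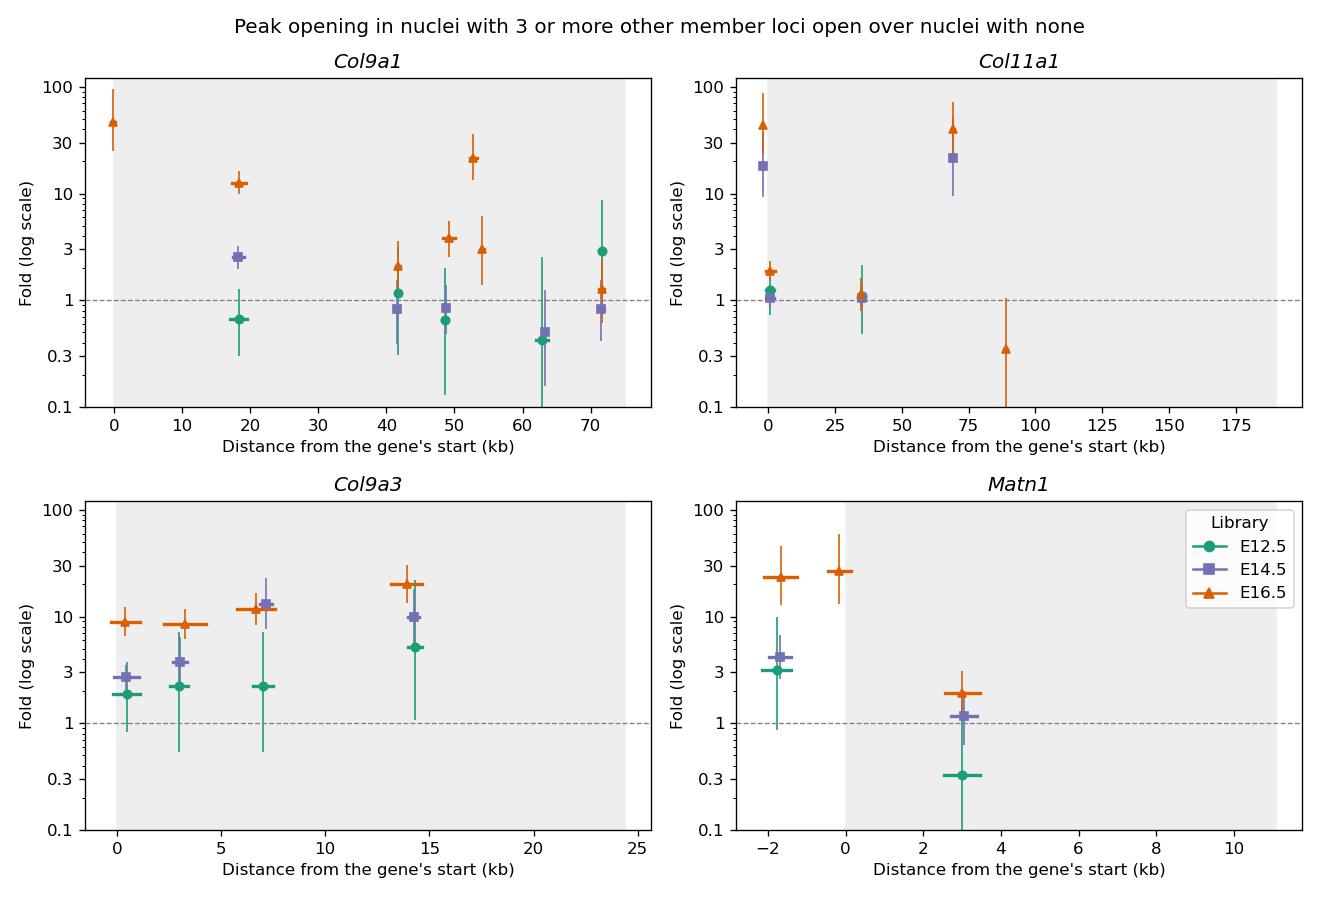
Fold between the shares of nuclei with each member peak open in nuclei with at least 3 and with none of the other member loci open, for Col9a1, Col11a1, Col9a3 and Matn1 by distance from the gene start (kb) and by library, on a log axis, for peaks open in at least 0.5% of nuclei. Horizontal lines are called widths, vertical bars 95% counting intervals and grey the gene body. At E14.5 the Col11a1 elements near -2 and 69 kb stand at 18.0 and 21.4, and the promoter of the gene at 1.06.

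Folds differed between peaks of Col2a1. At E14.5 its most accessible intronic peak, at 11.1 to 12.3 kb, was open in 4.51% of nuclei with other loci open and in 7.01% of those with none, a fold of 0.643 (0.434 to 0.923). The Col2a1 promoter had folds of 0.961, 1.59 and 4.55. Its called width at E16.5 was 9311 bases, against 4876 and 4423 bases at the earlier stages. At E16.5 the peaks in the introns from 21.6 to 25.3 kb and at the 3′ end from 28.3 to 31.5 kb had folds of 31.5 (21.3 to 47.5) and 24.9. The intronic region was called in that library only, and within the region at the 3′ end there was a small peak at E12.5.

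Elements of Col11a1 differed widely. At E14.5 the flanking element near -2 kb had a fold of 18.0 (9.24 to 36.7) and the intronic element near 69 kb 21.4 (9.55 to 52.6). At E16.5 they stood at 44.0 (23.7 to 88.0) and 40.0 (23.1 to 72.9). At E12.5 the flanking element, open in 0.331% of nuclei and so not among the 25 counted, stood at 7.00 (1.13 to 32.8), on 3 of 133 nuclei against 6 of 1863. The intronic element near 35 kb, open in 6.58%, 8.96% and 5.53% of nuclei, had folds of 1.1, 1.04 and 1.14. The Col11a1 promoter had 1.24, 1.06 and 1.90. The promoter and the 35 kb element, the most accessible peaks of Col11a1, thus had low folds, and its low pair ratios above were computed with them included. A further intronic peak near 88 kb, called over this width at E16.5 only, had a fold of 0.348 (0.0705 to 1.05).

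The start sites of Col9a1 also differed in fold, although both had high folds at E16.5. The long-form start was open in 12 of 929 nuclei with other loci open and in 1 of 4927 without at E14.5, below the 0.5% limit in all nuclei. At E16.5 it was open in 66 of 754 (8.75%) against 12 of 6464 (0.186%), a fold of 47.2 (25.3 to 95.8). The short-form start had 0.663, 2.54 and 12.7 (9.81 to 16.4). At E12.5, when the short-form promoter was most accessible, it was thus not measurably tied to the other cartilage loci. This was not particular to it, as 0 of the 9 member promoters counted at E12.5 had an interval above 1. In the introns of Col9a1 the peak near 53 kb had 19.2 (8.58 to 48.7) at E14.5, when it was open in 0.447% of nuclei and so not among the 26 peaks counted, and 21.6 at E16.5. The peaks near 41, 48, 63 and 71 kb stood between 0.5003 and 0.845 at E14.5.

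At E14.5 and E16.5 all shared peaks of Col9a3 had intervals above 1, and at E12.5 only that of the element near 14 kb did (5.22, 1.08 to 22). Its promoter had folds of 1.87, 2.71 and 8.98, and the intronic element near 3 kb had 2.24, 3.76 and 8.45. The elements near 7 kb (13, 7.69 to 22.8, then 11.7) and 14 kb (9.84, 5.58 to 18.0, then 20.01, 13.51 to 30.2) were higher at E14.5 than the promoter. Col11a2 and Col9a2, measured mainly at their promoters, had 1.31, 2.52 and 5.75 and 1.44, 1.89 and 3.98.

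For Acan the intronic element near 27 kb had 1.45, 2.96 and 7.03 and the promoter 0.833, 1.12 and 3.91. The Hapln1 promoter had 1.08, 1.48 and 4.68, and its E16.5 intronic peak from 43.5 to 46.1 kb 1.82. For Matn1 the flanking peak near -2 kb had 3.16, 4.17 and 23.5, the E16.5 promoter 26.6 (13 to 59.8) and the intronic peak near 3 kb 0.331, 1.16 and 1.92. The Chad promoter was open in 0 of 235 nuclei with other loci open at E12.5, which allows a share of up to 1.56% (exact binomial limit), and had folds of 1.73 and 5.66 later. By class, 10 of 11 promoters, 14 of 20 intronic and 4 of 4 flanking member peaks reached a fold of 2 at E16.5, against 3 of 9, 7 of 15 and 2 of 2 at E14.5 and 0 of 9, 4 of 14 and 1 of 1 at E12.5. The E16.5 promoters included the Matn1 promoter and the long-form Col9a1 start, which lay outside regions called in every library. Among all promoter peaks the share was 2.46% at E16.5, 0.533% at E14.5 and 1.5% at E12.5, and among all other peaks it was 9.62%, 5.56% and 9.69%.

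Among genes open in at least 1% of nuclei and more than 1 Mb from the members, the locus that went most closely with the number of open member loci was Wwp2, which encodes a ubiquitin ligase and hosts the cartilage microRNA miR-140. Pearson's r between an open Wwp2 locus and the number of open member loci was 0.0894 over 19521 nuclei at E14.5 and 0.190 over 13834 nuclei at E16.5, the highest of 14385 and 14252 genes. These values come from sparse counts in nuclei of 1 library each and are a description only. Wwp2 was open in 12.2% of E16.5 nuclei and in 34.2% of those with at least 2 open member loci, 2.80 times as often. Scrg1 came next at both stages (4.47 times as often at E16.5), and Sox6 was among the 10 highest at both (1.84 times at E16.5). Matn3 and Papss2 were also among the 10 highest at E16.5, and Matn4 at E14.5. At E12.5 the highest r was 0.0518 (Zfp28), and no gene of the cartilage lists was among the 10 highest. Col6a6, a collagen VI chain, had the lowest r at both later stages and at E16.5 was 0.512 times as often open in nuclei with at least 2 open member loci as in all nuclei.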

How the data were processed

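Per the study's methods and the submitters' processing notes, the authors processed the reads with Cell Ranger ATAC 1.1.0 (matrix headers name 1.0.1, 1.0.1 and 1.2.0) on mm10 and called peaks separately in each library. The deposited values are counts of cut sites per peak and nucleus, not normalised by the authors, with 2 cut sites per fragment. Doublet removal is not given in the sources used here.

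Peaks of the 3 libraries were merged where they overlapped by 1 bp, and comparisons between stages used regions called in every library, scaled to CPM, except for single peaks. Those were scored in each library's own calls, inside or outside such regions. A peak was a promoter peak if it reached the 1000 bp before or the 100 bp after a GENCODE vM21 start site, and otherwise intronic, exonic or flanking by its midpoint. Because each library called its own peaks, a wider peak collects more cut sites. For co-opening, each nucleus was thinned to 1309 fragments (the 25th percentile of depth at E12.5) or to 3000, and shallower nuclei were left out. In order of stage these were 2073, 502 and 214 nuclei at 1309 fragments and 4069, 6366 and 1184 at 3000, the depth used for single peaks. Intervals are exact Poisson, Clopper-Pearson or conditional binomial 95% intervals on fragments, nuclei or pair counts. For ratios summed over pairs they are too narrow, because a nucleus can add several dependent pair counts and the random thinning is left out. They cover counting error only, and with 1 library per stage no p-value was computed. A log2 difference of at least 0.5 was counted as higher or lower.

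All 10 members are named, and of each other list genes with the largest or smallest log2 difference. The 10 genes with the highest and the 5 with the lowest correlation with the number of open member loci were also listed. Other list genes named for co-opening were chosen after their values were seen. The members and lists were chosen with earlier results of these data known. Sex chromosomes were not analysed here. An intronic element is not reported here. Python 3.11.15, numpy 2.4.6, scipy 1.17.1, pandas 2.3.3 and matplotlib 3.10.9 were used, and the scripts were tested on simulated data.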

Additional observations from a re-analysis of the deposited data

How the results depend on the processing

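Depth per nucleus limits the share of nuclei in which a locus is seen open, and called peak width differs by library, so levels depend on how width is treated. The median log2 difference of member promoters from E12.5 to E14.5 (0.16) was 0.0047 with median-ratio scaling and 0.42 per kb of called peak, and that of the later interval (-0.26) was -0.10, -0.74 and, at matched positions, -0.46. For introns the first interval (-0.13) gave -0.29 with median-ratio scaling, 0.36 per kb, -0.42 at matched positions and -0.66 with all peaks, and the second (0.18) gave 0.35, -0.67, -0.19 and 0.58. The medians of all genes moved as well, to 0.10, -0.11, -0.49 and 0.50 with median-ratio scaling and 0.50, -0.67, 0.32 and -0.50 per kb. Per kb the direction turned for the Chad promoter (-0.67) and the Col9a3 introns (-0.67) from E14.5 to E16.5 and for the Col9a1 introns (0.28) from E12.5 to E14.5, since the wider called peaks enter the divisor. Among differences under 0.5 it also turned per kb for the Col9a2 and Acan promoters and the Col2a1, Acan, Hapln1 and Matn1 introns in the first interval, and for the Col11a2 promoter (-0.25) and the Col2a1 (-1.32), Acan (-0.67) and Matn1 (-0.25) introns in the second. With all peaks the Hapln1 introns turned to 0.93 from E14.5 to E16.5. The E16.5 sum then included peaks outside the shared regions, the largest at 43.5 to 46.1 kb with 7.18 CPM. The co-opening ratio at E14.5 (1.21) was 1.15 at 3000 fragments and 1.15 with another seed. At E16.5 (2.03) it was 1.74 at 3000 fragments, 1.78 when cut sites were thinned, 1.77 within bins of promoter share and 1.93 with another seed, and at E12.5 it moved by less than its interval in all 6 alternatives. At E14.5 and E16.5 the value with another seed lay below the main interval (1.16 to 1.26 and 1.94 to 2.13), which leaves out the random thinning. The share of nuclei with any member locus open was 63.6%, 67.8% and 52.7% at 3000 fragments, as more depth must give, and 40.0% at E12.5 and 34% at E16.5 with all peaks. The count of single peaks with a fold of at least 2, repeated at 1309 fragments with at least 2 other loci open, an alternative chosen after seeing the data, was 0 of 23, 10 and 28 in order of stage. With 1 library per stage no library could be left out.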
